A study of Danio rerio with 26 samples.

Results

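The genes described are the protein components of the cytosolic ribosome in zebrafish brain. Members were the genes of both count tables whose symbol, case ignored, starts with rpl, rps, rplp or rpsp followed by a digit. That pattern matched 95 of 32105 genes, and the 11 ribosomal S6 kinases among them were left out. By symbol the 84 members are 47 genes of the large subunit, 36 of the small subunit and rps19bp1. The product of rps19bp1 binds RPS19 and is no ribosomal subunit. RPL7L1, found in human large subunit precursors, is counted in the large subunit by its symbol alone. The symbols RPL5 and RPS26 each belong to 2 gene identifiers, and these copies are told apart by identifier. Symbols are written as the gene table gives them, often in the human style. Ribosomal proteins such as RPSA, FAU and RACK1 fall outside the pattern, and FAU and RACK1 were read in a list beside it.

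The cytosolic ribosome is built from a small subunit, which reads the mRNA, and a large subunit, which joins amino acids. Most of its proteins are needed in about equal number, and cells make these proteins in matched amounts. In vertebrates their mRNAs carry a 5′ terminal oligopyrimidine (TOP) tract, through which mTOR and LARP1 control their translation and stability together. Neurons use much of their protein synthesis for synapses, and loss of single ribosomal proteins in humans causes Diamond-Blackfan anaemia, a failure of red cell formation.

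The libraries came from brains of 26 male zebrafish, all with a rotenone label. Rotenone blocks complex I of the mitochondrial respiratory chain. The groups were 1 year old AB JxTu fish at 3.75 nM (n = 10), 1 year old AB JxTu fish at 37.5 nM (n = 9) and 3 year old AB JxTu Tg(flk:mCherry) fish at 37.5 nM (n = 7). The last strain carries a red reporter driven by flk, a promoter of blood vessel cells, so age and strain cannot be told apart. No untreated group is among these samples, and the 3.75 nM libraries were deposited in a table of their own, so dose and table cannot be told apart either. The labels do not state the length of exposure or whether animals were pooled. If samples were not separate animals, the p-values measure only the spread between these samples.

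Library totals were 20.6 to 36.0 in units of 1000000 counts, so that in the smallest library a level of 1 CPM (counts per 1000000) stood for 20.6 counts. Sample titles carry a fish number. These numbers were split here into a first run, 163 to 167 and 174 to 181 (12 libraries), and a second run, 189 to 202 (14 libraries). Libraries of every group are in each run. The first run has a gap of its own between 167 and 174, so placing the split after 181 was a choice. Within each run the groups hold separate stretches of numbers, and 163 to 167 are all fish at 3.75 nM. What the runs stand for is not stated in the labels. The brain label fitted the markers. All 10 neuron markers averaged at least 1 CPM, and their sum was 7189 to 8667 CPM over the 26 libraries. Some libraries also held RNA of other tissues. Replicate 4 at 3.75 nM had 2681 CPM summed over 6 skin and mucosa markers and 980 CPM over 7 skeletal muscle markers, against group medians of 62.3 and 22.1 CPM. Replicate 4 of the 1 year fish at 37.5 nM had 1551 CPM of the muscle markers and 275 CPM of 7 pituitary markers. Eye and pineal markers, 10 genes, reached 250 CPM in replicate 1 of that group and 216 CPM in replicate 1 at 3.75 nM, against a median of 11.8 CPM over all libraries. In 3 year fish, replicate 7 had 560 CPM of the skin markers. Results are also given without the 7 libraries called tissue libraries here, which are replicates 1, 4 and 5 of each 1 year group and replicate 7 of the 3 year fish. The 6 of 1 year fish had a score of the eye and pineal, pituitary, muscle or skin markers more than 2.5 above the median of all libraries on the log2 scale. The skin score of the 3 year library was 2.46, and it was taken from earlier results of these data. By this choice lymphocyte scores, which reached 3.09 in 3 year replicate 3 and 2.80 in 3 year replicate 4, were not counted. In 3 year fish, the 6 lymphocyte markers summed to 13.6 to 94.7 CPM, against 4.52 to 14.2 CPM in 1 year fish at the same dose.

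Transcripts of the 84 members took 1.75% to 2.60% of all counts. Levels between genes are compared as CPM per kilobase of annotated exon, since long transcripts collect more reads. On that scale rpl32, a large subunit protein, had the highest mean over 26 libraries, 567 per kilobase (417 to 718). It was followed by RPLP0 at 525, RPS14 at 471 and RPS7 at 456. RPLP0 anchors the P stalk, which draws in the translation factors that use GTP. RPS14 binds 18S rRNA in the platform of the small subunit. RPS7 is also a small subunit protein, and in human cells it binds MDM2, the inhibitor of p53. The ranges of these leading genes overlap, so their order is not firm.

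At the lower end stood genes related to a ribosomal protein of higher level. The lowest was rps11l at 0.596 CPM per kilobase, a mean of 0.33 to 0.34 CPM in each group, and it did not pass the filter on low counts in either group comparison. RPL7L1, a relative of RPL7 found in human large subunit precursors, averaged 11.6 per kilobase. The non-subunit rps19bp1 averaged 12.7 and rps27l 17.0. A further 79 members lay between 65.9 and 567 per kilobase. Annotated exon lengths ran from 346 to 3569 bases with a median of 1104. The longest belong to annotations longer than a ribosomal protein mRNA usually is, and a level per kilobase is too low where unused exons are counted in.

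**Figure D1:**
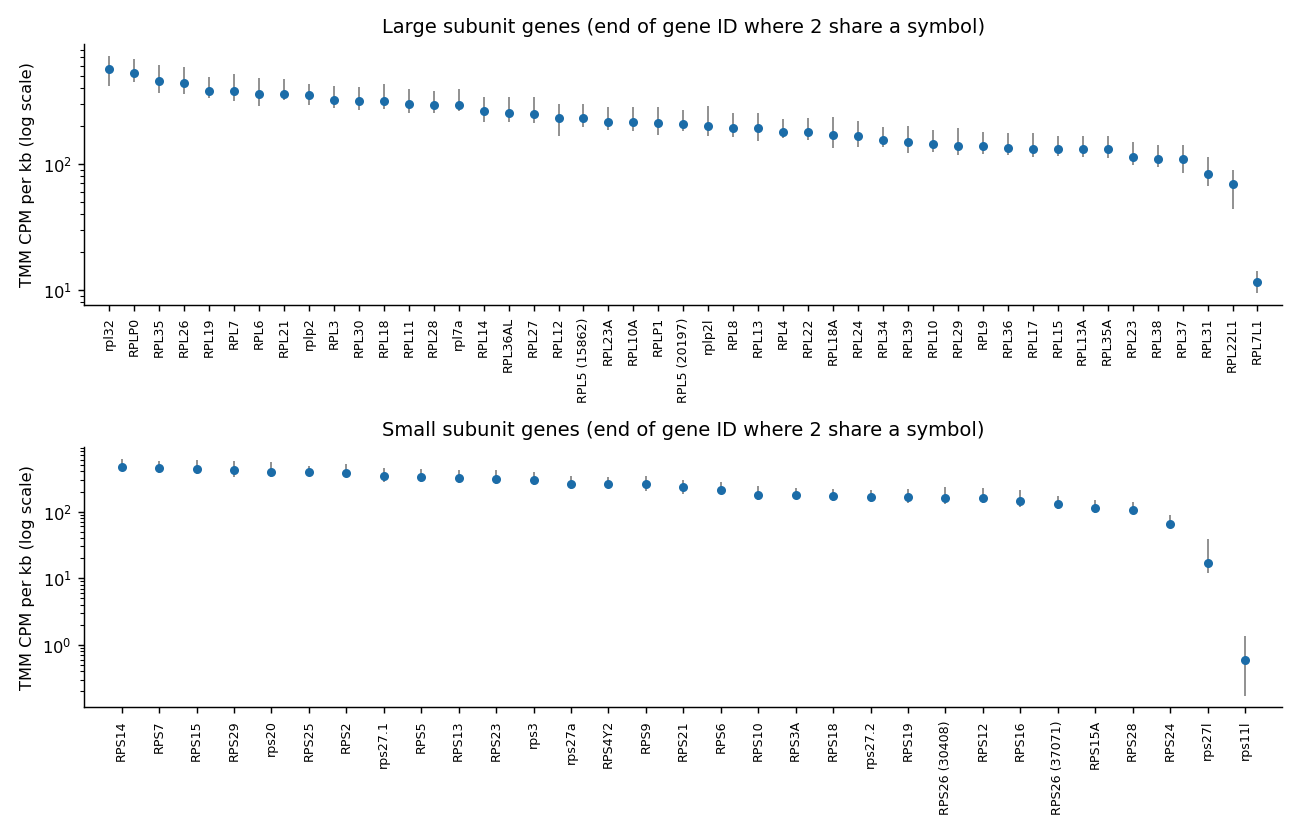
TMM-scaled CPM per kilobase of annotated exon (log scale) for each large subunit gene (upper panel) and small subunit gene (lower panel), ordered by level. Points are means over 26 libraries and lines run from the lowest to the highest library; genes not reported here are left out. Most genes lie within 65.9 to 567 per kilobase, and RPL7L1, rps27l and rps11l stand below.

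The large and small subunits kept step in every library. CPM summed over the large subunit genes were 11076 to 15609 (median 11442) at 3.75 nM, 11062 to 13470 (median 11791) in 1 year fish at 37.5 nM and 10238 to 12900 (median 11007) in 3 year fish. For the small subunit genes these values were 7044 to 10123 (median 7284), 7013 to 8563 (median 7529) and 6676 to 8310 (median 7119). The groups overlapped widely on both sums. The sum over the large subunit divided by that over the small was 1.57 ± 0.012 (SD, n = 10), 1.57 ± 0.012 (n = 9) and 1.55 ± 0.017 (n = 7), and it ran from 1.53 to 1.58 over all 26 libraries. At 3.75 nM the runs stood apart on this ratio, with 1.54 to 1.56 in the first (n = 5) and 1.57 to 1.58 in the second (n = 5). In both 37.5 nM groups the runs overlapped. The large subunit sum holds 47 genes against 36, but gene number alone does not give this ratio. Per kilobase the mean large subunit gene stood at 1.01 ± 0.011 (n = 26) times the mean small subunit gene. Annotated exon length thus enters the ratio of the sums beside gene number.

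**Figure D2:**
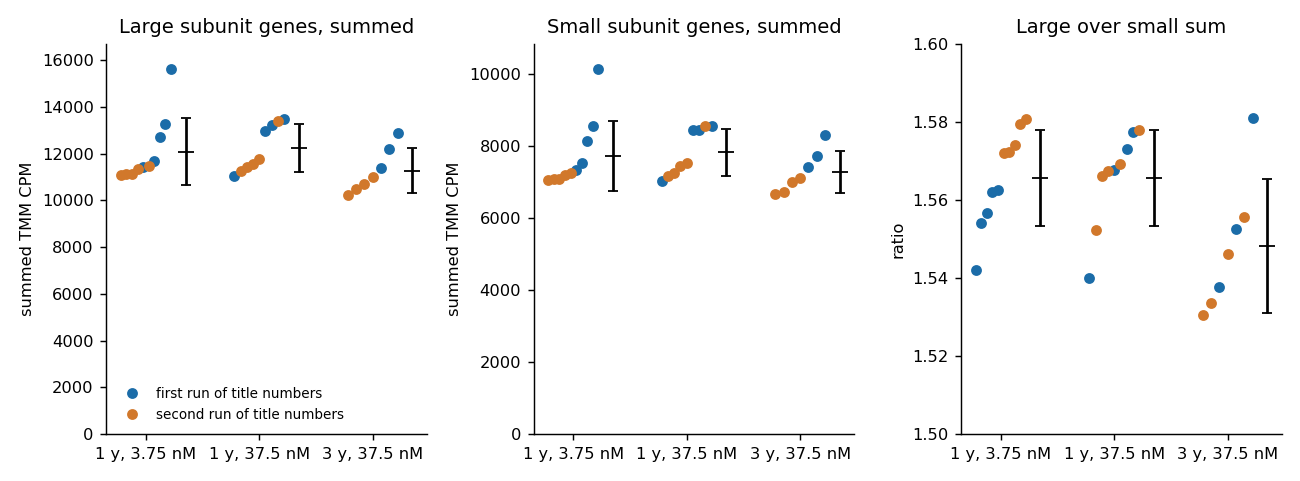
TMM-scaled CPM summed over large subunit genes (left) and small subunit genes (middle), and their ratio (right, on an axis that does not start at 0), per library in the 3 groups. Points are libraries ordered by value and coloured by run of title numbers, and bars show mean ± SD. The ratio stays between 1.53 and 1.58 while the sums range from 10238 to 15609 and from 6676 to 10123.

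Single genes followed their library. The SD of log2 CPM within groups had a median of 0.15 over the 83 subunit genes. After subtraction of the library's common level (the median deviation of all members), the median SD was 0.051, and 74 of 83 genes had an SD under 0.1. This common level ran from -0.20 to 0.40 on the log2 scale. Levels computed from the large and from the small subunit genes alone had the same sign in 26 of 26 libraries and differed by at most 0.0205. Genes share a library's depth and scaling, so they are not independent witnesses of that level.

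The genes that moved on their own were mostly related copies and low genes. RPL22L1, a relative of RPL22 that can replace it in mouse ribosomes, kept an SD of 0.25 and ran from 34.4 to 70.1 CPM. Its values overlapped in all groups, with medians of 55.2 CPM at 3.75 nM, 58.9 CPM in 1 year fish at 37.5 nM and 55.2 CPM in 3 year fish. The gene rps27l kept 0.26 and rps11l, near its counting limit, 0.56. Above 0.1 were also RPL7L1 with 0.13, the P stalk gene RPLP1 with 0.13, RPS16 with 0.12 and RPS2 with 0.11. Among those closest to the common level were RPS19, the gene most often mutated in Diamond-Blackfan anaemia, with 0.030 and RPL13A, used as a reference gene in many assays, with 0.030. Such an SD does not mean a constant level. RPL13A itself ran from 280 to 410 CPM over the 26 libraries. It was lower in the second run by 0.17 on the log2 scale (SE 0.042, edgeR adjusted p = 0.0055).

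**Figure D3:**
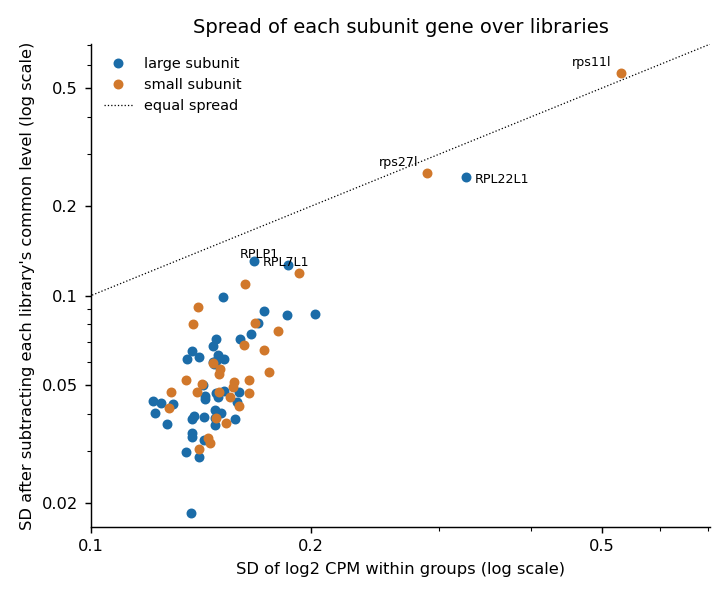
SD of log2 CPM within groups (x axis) against the SD left after the common level of each library is subtracted (y axis), both on log scales, for the subunit genes. Points are genes (those not reported here are left out) and the dotted line marks equal spread. Most genes drop from about 0.15 to about 0.05, while rps11l, rps27l and RPL22L1 stay near the line.

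At 37.5 nM, nearly every ribosomal protein gene had a slightly lower CPM estimate in 3 year than in 1 year brains. Only RPL29 and RPS7 passed the test. By library the groups overlapped. The common level ran from -0.20 to 0.13 in 3 year fish and from -0.10 to 0.18 in 1 year fish. CPM is a share of counts, so the amount of mRNA per brain was not measured. Of 83 members tested, 80 had a negative log2 fold change, and 2 were lower and 0 higher at adjusted p under 0.05 (edgeR quasi-likelihood test). Of all 19887 genes tested, 2.87% were lower and 4.92% higher (7.79% in either direction), so the members' count lies near the background. The median log2 fold change was -0.12 in the large subunit (47 genes) and -0.12 in the small (35 genes), against 0.01 over all genes tested, of which 48.8% were negative. In no member did the groups stand wholly apart, against 0.292% of all genes with every 3 year library lower and 0.458% with every such library higher. At an unadjusted p under 0.05 stood 24 of 83 members and 25.6% of all genes. Since the members move together from library to library, their shared sign is no count of separate events. In bulk tissue, fewer cells of a type and less RNA per cell cannot be told apart.

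RPL29 is a small basic protein of the large subunit, and mice without it live but stay small. It ran from 130 to 154 CPM (median 136) in 3 year fish, from 145 to 184 CPM (median 160) in 1 year fish at 37.5 nM and from 144 to 214 CPM (median 154) at 3.75 nM. All 7 of the 3 year libraries lay below the 1 year median, yet the ranges overlapped. It fell by 0.25 on the log2 scale (SE 0.056, edgeR adjusted p = 0.015) and stayed past the threshold when any of the 16 libraries was left out.

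RPS7 ran from 260 to 321 CPM (median 286) in 3 year fish, from 291 to 365 CPM (median 325) in 1 year fish at 37.5 nM and from 287 to 402 CPM (median 299.8) at 3.75 nM. Again all 7 libraries of 3 year fish lay below the 1 year median, and the ranges overlapped. RPS7 fell by 0.20 (SE 0.054, edgeR adjusted p = 0.032), and in 6 of 16 fits with a library left out it missed the threshold, with adjusted p up to 0.074. Those libraries were replicates 3, 4 and 8 of the 1 year fish and replicates 4, 6 and 7 of the 3 year fish, and without each of them RPL29 was the 1 member called.

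Other genes with large negative values missed the threshold. The log2 fold change of rpl32 was -0.26 (SE 0.090, edgeR adjusted p = 0.078), with 214 to 326 CPM in 3 year fish and 271 to 356 CPM in 1 year fish. RPL6, a large subunit protein, had -0.22 (adjusted p = 0.071) and RPL12, a protein at the base of the stalk, -0.22 (adjusted p = 0.079). RPL7 had -0.17 (adjusted p = 0.073). At the other end RPL19, by the exit tunnel, had 0.01 and rps20 -0.01. A single library weighs on the RPL19 value, with 472 CPM in 3 year replicate 5. The other 3 year libraries had 325 to 405 CPM of RPL19, and the 1 year fish 329 to 418 CPM.

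These counts depend on which libraries and terms entered. Without 3 year replicate 3, 8 members were lower, and without 3 year replicate 1 there were 4. Without 3 year replicate 5, 1 member was higher. The shares of all genes called in these fits are not given here, so their counts have no background beside them. Without the 4 tissue libraries, 0 members passed (3.75% of all genes in either direction), and the medians were -0.08 in the large and -0.07 in the small subunit. In that fit 8 members had an unadjusted p under 0.05, as did 4083 of all 19678 genes. With library totals in place of TMM factors, 76 of 83 values were negative with medians of -0.07 and -0.07, against 0.05 over all genes. DESeq2 called 11 members lower and rps27l higher, against 4.2% and 6.21% of the genes it gave a p. When the fit held a term for the run, 9 members were lower and rps27l was higher, against 4.1% and 5.83% of all genes. In the first run alone (3 against 4 libraries) the medians were -0.06 and -0.05 with 0 members called (0.0811% of all genes). In the second run alone (4 against 5 libraries) they were -0.18 and -0.18 with 5 members lower (2.05% of all genes). A test of the difference between runs called 0 of 19887 genes, with the smallest adjusted p among members at 0.63 and 1534 genes, 3 of them members, at an unadjusted p under 0.05.

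Markers of some other cell types also differed in this comparison. All 6 lymphocyte markers were higher in 3 year fish (median log2 fold change 1.84), and 5 of 10 tested markers of microglia and macrophages (median 0.58, summed 1052 to 1888 CPM against 815 to 1347). The 6 tested muscle markers had a median of -3.46 with 0 called, their sum being 6.86 to 36.0 CPM in 3 year fish and 7.15 to 1551 CPM in 1 year fish. The 6 tested eye and pineal markers had a median of -2.33 with 0 called, and the 2 tested pituitary markers -3.15 with 0 called. All 5 tested skin and mucosa markers had positive values, with a median of 0.68 and 0 called. The 6 oligodendrocyte markers had a median of -0.06 with 0 called. Their sum was 6391 to 13443 CPM in 3 year fish and 9647 to 17616 CPM in 1 year fish. Of 10 neuron markers STMN2, a tubulin-binding protein of growing axons, fell by 0.29 (edgeR adjusted p = 0.017), with a median of -0.05 over the list. No marker of these lists was without counts. Their part in the ribosomal protein values was not tested beyond the fit without the tissue libraries.

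**Figure D4:**
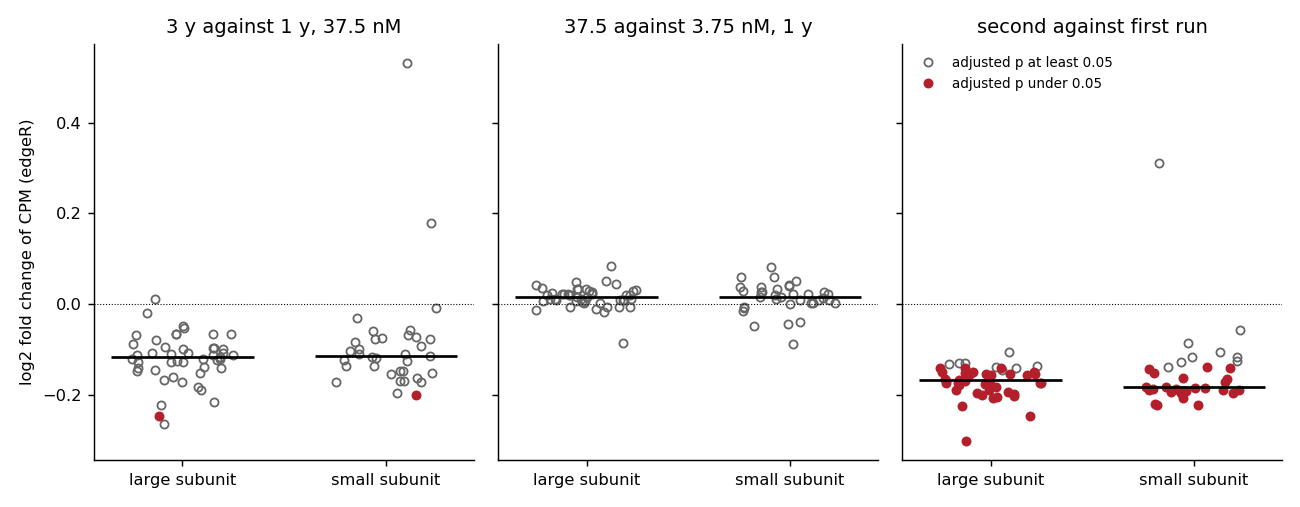
Log2 fold change of CPM (y axis, edgeR) of each large and small subunit gene in the age comparison (left), the dose comparison (middle) and between the runs of title numbers (right). Filled red points have an adjusted p under 0.05 and black lines are medians. Medians lie near -0.12 for age, near 0.02 for dose and at -0.17 and -0.18 between runs.

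By site in the ribosome, the age values were alike and no site held more than 1 call. The P stalk genes RPLP0, RPLP1, rplp2 and rplp2l had a median log2 fold change of -0.09 with 0 of 4 called. RPL11 and both RPL5 genes form with 5S rRNA the particle that binds MDM2 when ribosome assembly fails in mammalian cells, and had a median of -0.09 with 0 of 3 called. The 9 genes at the peptide exit tunnel, among them RPL26, RPL31 and RPL35, had -0.13 with 0 called. RPL3, RPL8 and RPL10, which reach toward the peptidyl transferase centre, had -0.12 with 0 called. The 7 genes along the mRNA channel and decoding centre, among them RPS2, rps3 and RPS23, had -0.12 with 0 called. Of 12 genes whose human counterparts are mutated in Diamond-Blackfan anaemia, RPS7 alone was called and the median was -0.10. RPS6, the substrate of the S6 kinases, had -0.08 (SE 0.068, edgeR adjusted p = 0.50), with 299 to 373 CPM in 3 year fish and 301 to 383 CPM in 1 year fish.

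The small subunit gene rps27l had a positive value where most members had a negative one. The human counterpart of rps27l is a target of p53. The zebrafish gene ran from 9.27 to 23.1 CPM (median 11.8) in 3 year fish, from 7.12 to 11.6 CPM (median 8.63) in 1 year fish at 37.5 nM and from 7.13 to 10.6 CPM (median 8.96) at 3.75 nM. All 7 libraries of 3 year fish lay above the 1 year median, though the ranges overlapped. The log2 fold change was 0.53 (SE 0.17, edgeR adjusted p = 0.064). The highest value was in 3 year replicate 3, the library with the highest lymphocyte marker sum (94.7 CPM), and without that library the log2 fold change was 0.33 (SE 0.12, adjusted p = 0.11). The first run alone gave 0.74 and the second 0.32.

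Scaling each library to its own ribosomal proteins, an alternative added after the values were seen, asks which members depart from the common level. It moved the median of all genes by 0.12 on the log2 scale, and every fold change then reads relative to the members. On this scale 2 members were higher, among them rps27l by 0.63 (edgeR adjusted p = 0.012). No member was lower, RPL29 standing at -0.12 (adjusted p = 0.12) and RPS7 at -0.08 (adjusted p = 0.21). Of all genes, 9.47% were higher and 0.573% lower on this scale, 10% in either direction.

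**Figure D5:**
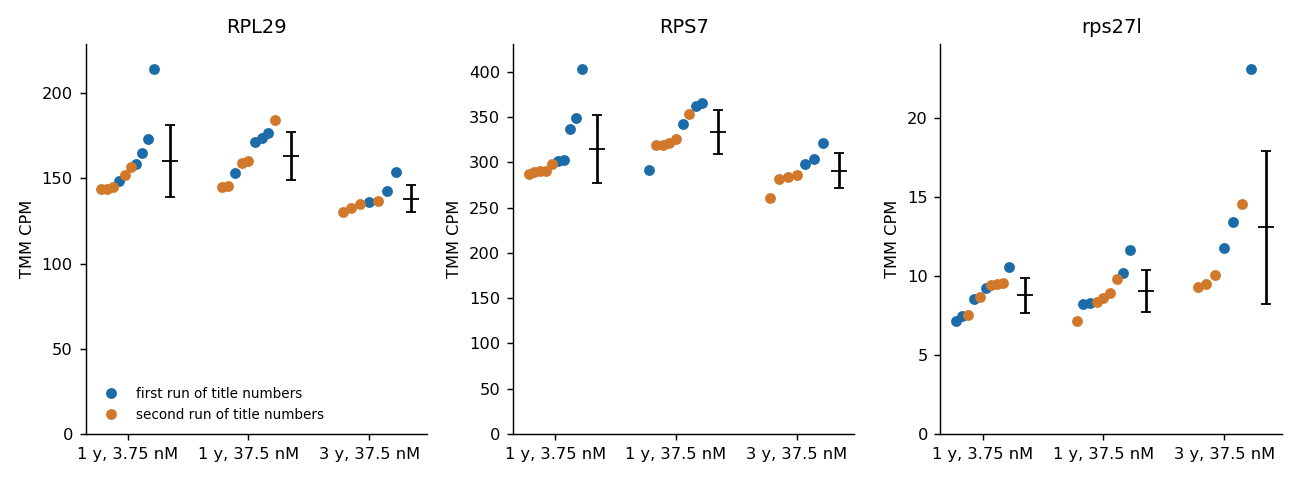
TMM-scaled CPM of RPL29, RPS7 and rps27l per library in the 3 groups. Points are libraries ordered by value and coloured by run of title numbers, and bars show mean ± SD. RPL29 and RPS7 sit lower in 3 year fish with overlapping ranges, and rps27l reaches 23.1 CPM in a single 3 year library.

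Several ribosomal protein genes have copies or relatives among the members, and their ratios could be followed per kilobase in each library. The ratio of rps27l to rps27.1 was 0.045 ± 0.0066 (SD, n = 10) at 3.75 nM, 0.045 ± 0.0056 (n = 9) in 1 year fish at 37.5 nM and 0.066 ± 0.018 (n = 7) in 3 year fish. Its ranges were 0.049 to 0.099 in 3 year fish and 0.037 to 0.051 in 1 year fish at 37.5 nM, and they overlapped slightly.

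The other ratios, given in the same order, stayed within their spread across the groups. RPL5 ENSDARG00000020197 stood at 0.91 ± 0.031, 0.91 ± 0.051 and 0.91 ± 0.040 of RPL5 ENSDARG00000015862. RPS26 ENSDARG00000037071 stood at 0.79 ± 0.057, 0.82 ± 0.021 and 0.82 ± 0.047 of RPS26 ENSDARG00000030408. The ratio of rps27.2 to rps27.1 was 0.50 ± 0.033, 0.51 ± 0.039 and 0.48 ± 0.020, and that of rplp2l to rplp2 0.58 ± 0.049, 0.56 ± 0.026 and 0.54 ± 0.035. RPL22L1 stood at 0.39 ± 0.054, 0.38 ± 0.064 and 0.37 ± 0.064 of RPL22, and RPL7L1 at 0.031 ± 0.0029, 0.030 ± 0.0036 and 0.033 ± 0.0024 of RPL7. Reads of copies with near-identical sequence can be lost or assigned to the wrong copy, and how reads with several matches were counted is not given in the sources used here. These ratios are uncertain for that reason.

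The dose comparison found no ribosomal protein gene with a difference. Between 37.5 and 3.75 nM at 1 year, 0 of 83 members were called by edgeR's quasi-likelihood test and 0 by DESeq2, and 0 had an unadjusted p under 0.05 with either tool. Of all 19691 genes tested, edgeR called 10 (0.0508%, with 0.0355% higher and 0.0152% lower), DESeq2 called 0.237% of the genes it gave a p, and 9.25% had an unadjusted p under 0.05. The groups stood wholly apart in 0 members, against 0.00508% of all genes lower and 0.0305% higher. The median log2 fold change was 0.02 in each subunit against -0.01 over all genes. Single values ran from -0.09 to 0.08, the highest being that of rpl32, with standard errors of 0.056 to 0.13, so differences of that order were not detectable here. RPS7, for example, had 0.08 (SE 0.063), and rps27.2 had 0.06 (SE 0.067). RPL7L1 had -0.09 (SE 0.077) and RPL9 0.05 (SE 0.059).

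A single library weighs on the dose values. Replicate 4 at 3.75 nM, with the skin and muscle RNA described above, had the highest value of its group in 82 of 83 subunit genes and the highest of all 26 libraries in 78 of 83. Leaving it out, or any other library, kept 0 members called, and the medians then ran from -0.004 to 0.070 in the large subunit and from -0.0004 to 0.072 in the small. Without 6 tissue libraries they were 0.05 in both, with 0% of all genes called. Within runs the medians differed in sign. The first run gave -0.02 for the large and -0.03 for the small subunit, with 0 members and 0.0605% of all genes called. The second gave 0.10 and 0.11, with 0 members and 0% of all genes called. Replicate 4 is 1 of the 5 libraries at 3.75 nM in the first run. Its common level was 0.40, against -0.06 to 0.16 in the others of that group and run. The first run was not fitted without replicate 4, so the negative sign there may rest on this library. A test of the difference between runs called 0 of 19691 genes, with 1452 genes and 0 members at an unadjusted p under 0.05. The 9 libraries of 1 year fish at 37.5 nM serve in both the age and the dose comparison.

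Most ribosomal protein genes were called between the runs of title numbers, a comparison added after the values were seen. Its fit held all libraries and the age fit fewer, with a median member SE of 0.049 against 0.069. The counts of calls in these comparisons are therefore not on equal terms. With group as a term, 65 of 84 members were lower in the second run, 0 were higher and 83 had a negative value (edgeR quasi-likelihood test). Of all 20452 genes tested, 10.1% were lower and 12.2% higher (22.2% in either direction). The median log2 fold change was -0.17 in the large and -0.18 in the small subunit, against 0.0003 over all genes. Since the members move together from library to library, the 65 calls are no count of separate events. At 3.75 nM the large subunit sum was 11076 to 11454 CPM in the second run (n = 5) and 11429 to 15609 CPM in the first (n = 5). In 1 year fish at 37.5 nM it was 11261 to 13418 CPM (n = 5) against 11062 to 13470 CPM (n = 4), and in 3 year fish 10238 to 11007 CPM (n = 4) against 11390 to 12900 CPM (n = 3). The runs overlapped in both 1 year groups and stood apart in 3 year fish.

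Between runs RPL10, a large subunit protein of late assembly, had -0.20 (SE 0.041, edgeR adjusted p = 0.0013). RPL11 had -0.21 (SE 0.042, adjusted p = 0.0014), RPS3A -0.19 (SE 0.040, adjusted p = 0.0015) and RPL22L1 -0.30 (SE 0.11, adjusted p = 0.043). All 4 P stalk genes were lower. The members not called included rps27.2 with -0.06, RPS2 with -0.11 and rps19bp1 with -0.04. Leaving out 1 library gave 59 to 76 lower members, and 61 without replicate 4 at 3.75 nM. The shares of all genes lower in those fits are not given here, so this range has no background beside it. Without 7 tissue libraries 45 of 83 were lower (6.91% of all genes), with medians of -0.17 and -0.18. Beside this, 4 of 6 tested muscle markers were lower in the second run, and 1 of 3 tested red blood cell markers was higher. Of 6 oligodendrocyte markers 2 were higher and 1 was lower, OLIG2 at -0.36 (edgeR adjusted p = 0.012). Of 10 neuron markers 2 were higher and 0 lower. Of 7 tested eye and pineal markers 1 was lower and 0 higher. A further 1 of 5 red blood cell markers had no count in any library. The oligodendrocyte markers, 6 genes, summed to 6391 to 14494 CPM in the first run and 8967 to 17616 CPM in the second. Their part in the difference was not tested.

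Genes that work with the ribosome were read from lists. The list of TOP mRNAs beyond the ribosomal proteins held 31 genes, most of them translation factors. It also held both VIM genes, hnrnpa1a, NAP1L1 and TPT1, which are not translation factors. In the age comparison 3 of the 31 were lower and 0 higher, with a median of -0.12, against 2.87% of all genes lower and 4.92% higher. The poly(A)-binding protein gene pabpc1b fell by 0.31 (SE 0.056, edgeR adjusted p = 0.0041), and the initiation factor 3 subunits EIF3B and EIF3F fell by 0.19 (adjusted p = 0.023) and by 0.14 (adjusted p = 0.049). On the scale of the members this list's median was 0.002 with 0 called. Of 73 mitochondrial ribosomal proteins, which make the few proteins encoded in mitochondrial DNA, mrpl36 fell by 0.21 (adjusted p = 0.046) and 0 rose. Their median was -0.05, and 0.07 on the scale of the members. The 1 call in 73 genes is below the 2.87% of all genes that were lower.

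Lists for making the ribosome and for mTOR held few calls, 1 to 2 genes each, set against 4.92% of all genes higher and 2.87% lower. Of 62 biogenesis factors, NOP10, a box H/ACA snoRNP protein, fell by 0.37 (edgeR adjusted p = 0.037) and FTSJ3, an rRNA methyltransferase, rose by 0.22 (adjusted p = 0.044), with a median of 0.04. Of 12 RNA polymerase I genes, TAF1B rose by 0.23 (adjusted p = 0.042), and the median was 0.005. Of 28 genes of the mTOR, LARP1 and S6 kinase list, RPS6KA5 rose by 1.17 (SE 0.32, edgeR adjusted p = 0.033), with a list median of 0.005. That gene is in the list for its S6 kinase symbol, and mTOR activity was not measured. RPS6KA5 averaged 10.7 ± 4.5 CPM (SD) in 3 year fish and 4.7 ± 2.4 CPM in 1 year fish at 37.5 nM. In 1 year fish at 3.75 nM it averaged 8.2 ± 4.2 CPM, nearer to the 3 year fish. On the scale of the members, 9 of 62 biogenesis factors, 3 of 12 RNA polymerase I genes and 2 of 28 mTOR list genes were higher. None was lower, and 9.47% of all genes were higher on that scale. The list medians were then 0.16, 0.13 and 0.11, against 0.13 over all genes. Of the ribosomal proteins outside the symbol pattern, FAU had -0.11, RACK1 -0.11 and faub -0.06, and 0 were called.

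In the dose comparison 0 genes of these 6 lists passed. The mitochondrial ribosomal proteins had a positive value in 68 of 73 genes with a median of 0.09. Over all genes tested for dose the median was -0.01 and 52% were negative. Genes of this list share a library's depth and scaling, so their shared sign is no count of separate events. Between runs the same list had 60 of 73 genes lower with a median of -0.21, and MRPL57 had -0.33 (SE 0.038, edgeR adjusted p = 5.8e-06). Biogenesis factors had 28 of 62 lower (median -0.14) and the TOP mRNA list 11 of 31 lower and 1 higher (median -0.09). Of all genes tested between runs, 10.1% were lower and 12.2% higher. Of the 28 genes of the mTOR, LARP1 and S6 kinase list, 4 were higher and 5 lower, with MTOR at 0.18 (adjusted p = 0.0011) and rps6kb1a, which encodes an S6 kinase, at 0.43 (adjusted p = 0.0035).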

How the data were processed

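The authors deposited whole-number read counts per Ensembl gene for 26 libraries, not normalized. Libraries were made with an Illumina TruSeq v2 kit per the labels' protocols, a kit without strand information, so reads of antisense and overlapping genes are mixed. The build GRCz10 and the tools featureCounts 1.4.6-p4, STAR 2.4.1d and CASAVA 1.8.2 are named, without roles, per the submitters' processing notes. The authors' tables named RPKM were used as a score, since each value was divided by a library total that changes with its row in a cycle of 50. They served only to recover exon lengths, which came out whole within 0.034 bases for the 81 members with at least 300 counts that could be checked. No column belonged to another sample.

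Gene names came from a table of identifiers (26269 of 32105 named). Counts were scaled by TMM and tested with edgeR 4.0.16 (quasi-likelihood F test, robust, filterByExpr) in R 4.3.3. Benjamini-Hochberg adjustment ran over all genes tested, with a threshold of 0.05. The SE was taken from the log2 fold change and F (their ratio, after a square root of F). Log2 CPM used a prior count of 2. The fit was tested on simulated data. There genes varied independently and changes were larger than the member medians given here, so small shifts shared by many genes were not covered. Alternatives used DESeq2 1.42.0, limma 3.58.1 (voom), other scalings and filters, runs alone and libraries left out. Tissue libraries were 6 with a marker score over 2.5 above the median on the log2 scale and 1 known from earlier results. Named members were those called, the 3 smallest p per comparison and subunit, the 5 highest and 5 lowest, related copies, the 5 most variable and genes with known other roles. RPL12, RPL19 and RPS3A were outside this rule and named after their values were seen. RPL8, RPL31 and RPS23 were also outside it and are named only for their site in the ribosome. Some members and list genes are not reported here by name, though they enter the counts and medians. Members, lists and tests were chosen with earlier results of these data known. Of 211 list symbols, 199 were matched. The SE holds counting error and spread between samples together, which were not separated.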

Additional observations from a re-analysis of the deposited data

Results flagged for a closer look

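In the groups of 7, 9 and 10 libraries, 129 group and measure pairs were searched for a highest or lowest library far from the rest (Dixon's gap at 95%), and 26 were found. Chance gives about 1 in 20. Of the 26, 21 were replicate 4 at 3.75 nM, the library with skin and muscle RNA. Its large subunit sum was 15609 CPM (next library 13271) and its small subunit sum 10123 CPM (next 8540). For large subunit genes its levels were 214 CPM for RPL29, 498 CPM for RPL6, 534 CPM for RPL7, 368 CPM for rpl32, 337.5 CPM for RPL9, 576 CPM for RPL4, 580.2 CPM for rpl7a, 314 CPM for RPL5 (ENSDARG00000015862), 257 CPM for RPL11, 243 CPM for RPL23 and 345 CPM for RPL26. For small subunit genes they were 748 CPM for RPS2, 153 CPM for RPS26 (ENSDARG00000030408), 399 CPM for RPS14, 237 CPM for RPS19, 444 CPM for RPS6, 295 CPM for rps20, 365 CPM for rps27a and 411 CPM for rps3. The same library thus gave most of these, and its genes are not separate observations.

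The other 5 were in different libraries. Replicate 8 at 3.75 nM had 0.763 CPM of rps11l (next 0.411). Replicate 1 of 1 year fish at 37.5 nM, a library with eye and pineal RNA, had 338 CPM of RPLP1 (next 262). In 3 year fish, replicate 3 had 23.1 CPM of rps27l (next 14.6), replicate 5 had 706 CPM of RPS2 (next 558) and replicate 2 had 302 CPM of RPLP1 (next 248). No difference of the age or dose effect between runs passed its test.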

How the results depend on the processing

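In the age comparison the count of lower members, 2, was 11 with DESeq2, 9 with run as a covariate and 5 in the second run alone. The shares of all genes lower were 2.87% in the main fit and 4.2%, 4.1% and 2.05% in these. The count was 1 with library totals alone (346 of 19887 genes lower), and 0 in the first run alone and without 4 tissue libraries. Leaving out 1 library gave 1 to 8, the 8 coming without 3 year replicate 3. Shares of all genes for those fits are not given here. Scaled to the members the count of lower members was also 0, but that scaling takes out any shift the members share. The count of higher members, 0, was 1 with DESeq2, with run as a covariate and with all 26 libraries in 1 fit, and 2 scaled to the members. Of all genes, 6.21%, 5.83%, 1195 of 20452 and 9.47% were higher in these fits. Leaving out 1 library gave 0 to 1 higher members. Dose counts stayed at 0 in all alternatives run. The medians moved by less than the spread between libraries, but that spread (0.139 on the log2 scale) exceeds the age and dose medians themselves. Age medians were most negative in the second run alone, at -0.18. Scaled to the members they were 0.006, near 0 by construction, since that scaling sets the members' median level equal in all libraries. Dose medians ran from -0.03 (first run alone) to 0.11 (second run alone). Among named genes the dose value reversed for RPL7L1 (0.012 without 6 tissue libraries) and was not past the threshold; the cause was not tested. RPL29 was called in 10 of 14 other alternatives and RPS7 in 9 of 14. With mitochondrial genes left out of the totals, mean sums rise by construction, to 13675 CPM (large) and 8736 CPM (small) in 1 year fish at 37.5 nM, and to 12837 and 8288 CPM in 3 year fish.

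No paired analysis was possible because each fish number occurs once. The dose comparison cannot be separated from the count tables, nor age from strain, and counts near the floor, as in rps11l, limit any statement there.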
